A study of Mus musculus with 2 samples.

Results

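The 5 Six-family and 4 Eya-family genes described here were chosen by symbol, Six2, Six3, Six4, Six5, Six6, Eya1, Eya2, Eya3 and Eya4, and make up 9 of the 43346 gene rows of the deposited tables. Other Six-family members are not analysed here. The study measured total RNA of the mouse midbrain at embryonic day 10.5 by RNA-seq. It holds 2 libraries, both of healthy B6NCrl embryos of pooled sexes, with no mutant, treated or other-stage group. Replicate 1 came from the midbrains of 69 embryos and replicate 2 from those of 51 embryos, and each library started from 10 ng of RNA. Each replicate is a pool, so the spread between them is a spread between pools and not between embryos. In that spread, differences of the pools cannot be told apart from differences of dissection or library preparation.

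SIX-family proteins are transcription factors with a homeodomain, which binds DNA, beside a SIX-type domain, which binds other proteins. EYA proteins do not bind DNA themselves; they are recruited by SIX-family proteins as co-activators and carry a tyrosine phosphatase, while Groucho-type TLE proteins bind SIX3 and SIX6 as corepressors. The network is best known from the eye, the cranial placodes, muscle and kidney, and Six3 and Six6 also from the anterior brain.

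The 2 libraries held 45531621 and 50477634 expected counts over all gene rows in replicate 1 and replicate 2. Of 8 midbrain markers 7 reached 1 TPM (a level scaled to transcript length and library size) in both libraries, with Otx2, a forebrain and midbrain identity gene, at 138.04 and 122.72 TPM. En2, a midbrain and hindbrain gene, stood below 1 TPM at 0.92 and 0.71 TPM. The muscle marker Myod1 stood at 0.04 TPM in replicate 1 and listed at 0 in replicate 2.

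The homeobox, the part of a Six-family gene that encodes the homeodomain, shows how alike the members are and so whether reads can be told apart among them. The lines below give the 180 coding bases of the homeobox 5′ to 3′ from GENCODE M21 transcripts on GRCm38, for Six3 and for the members nearest to it in sequence; capitals in the Six6 and Six2 lines mark bases that differ from Six3.
Six3, chr17:85621858-85622037, plus strand: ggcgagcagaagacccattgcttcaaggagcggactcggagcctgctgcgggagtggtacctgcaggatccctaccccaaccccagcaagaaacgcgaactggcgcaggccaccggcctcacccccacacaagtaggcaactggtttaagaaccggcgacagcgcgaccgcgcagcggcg
Six6, chr12:72940437-72940616, plus strand: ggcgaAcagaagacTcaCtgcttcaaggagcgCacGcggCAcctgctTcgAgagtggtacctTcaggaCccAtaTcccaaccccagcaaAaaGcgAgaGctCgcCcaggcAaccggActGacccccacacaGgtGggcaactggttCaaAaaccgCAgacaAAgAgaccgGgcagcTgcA
Six2, chr17:85687404-85687583, minus strand: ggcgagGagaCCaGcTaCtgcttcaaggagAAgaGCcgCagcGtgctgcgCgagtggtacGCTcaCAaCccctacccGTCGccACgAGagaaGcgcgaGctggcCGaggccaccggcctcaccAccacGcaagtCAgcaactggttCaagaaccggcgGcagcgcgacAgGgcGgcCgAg
Six6 had the same base as Six3 at 146 of the 180 positions (81.1%), Six2 at 138 (76.7%), and Six4 and Six5 at 122 each (67.8%). Between Six3 and Six6 the longest identical run was 14 bases, and over all pairs of Six-family members it was 32 bases, between Six2 and Six4. Of the 39 transcript models of the 9 genes in the tables, 38 were found at the same length in M21. None of these held a 100-base stretch that any other gene carries on the same strand, so full-length reads of that size would separate the members from each other.

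Of the 9 genes, 8 reached 1 TPM in both libraries, against 12477 of 21474 protein-coding genes (58.1%). Six6, a transcription factor of the retina, hypothalamus and pituitary, was the exception, with 0.56 TPM in replicate 1 and 1.55 TPM in replicate 2. The detected coding genes had a median level of 20.69 TPM, and Eya3 alone among the 9 lay above it. The means ran from 25.3 TPM for Eya3, above 55.5% of detected coding genes, down to 1.06 TPM for Six6. In bulk tissue, fewer cells of a type and less RNA per cell cannot be told apart, and a low level does not say how many cells express a gene.

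**Figure D1:**
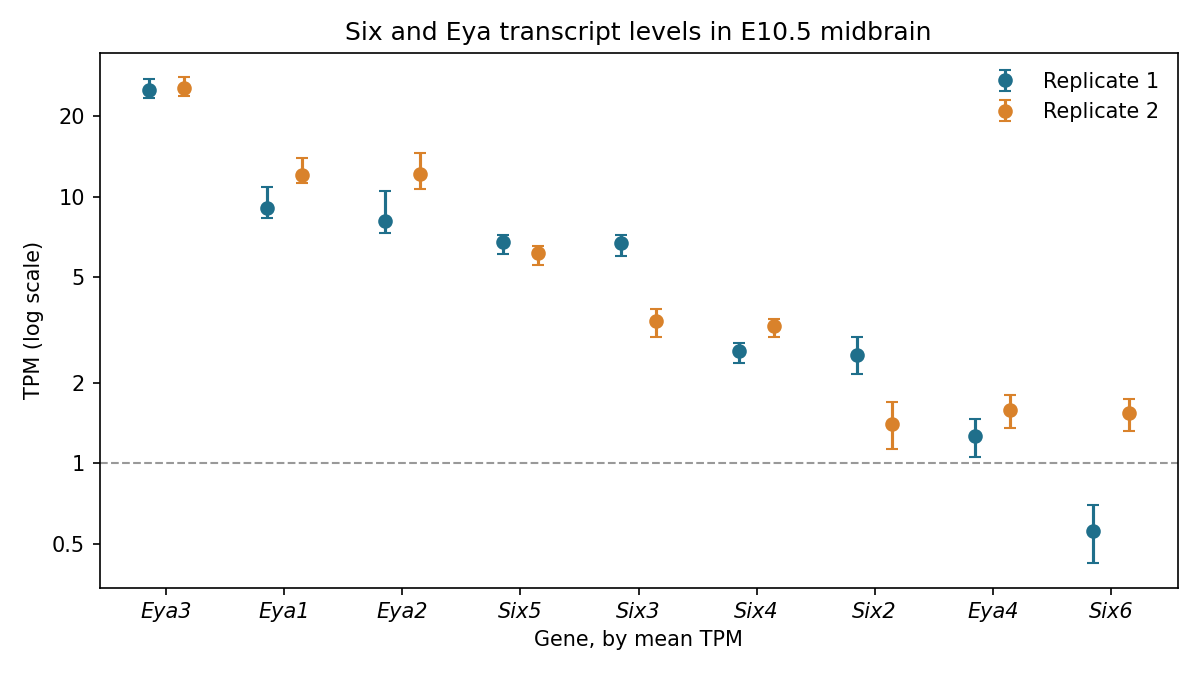
Levels of the 9 genes (x axis, ordered by mean) in TPM on a log axis, with replicate 1 left of replicate 2; bars are the credible bounds in the authors' tables and the dashed line is 1 TPM. Eya3 stands highest at 25.17 and 25.40 TPM, Six3 and Six2 are higher in replicate 1, and Six6 drops below the line in replicate 1.

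Among the Eya co-activators, Eya3 (chr4:132638987-132724765, plus strand), the most broadly expressed of them in the embryo, had 25.17 TPM in replicate 1 and 25.40 TPM in replicate 2, from 1169 and 1395 expected counts. Its mean of 25.3 ± 0.16 TPM (SD, n = 2) was 2.40 times that of Eya1, the next gene. Eya1 (chr1:14168954-14310235, minus strand), whose human counterpart is mutated in branchio-oto-renal syndrome, had 9.04 TPM in replicate 1 and 12.02 TPM in replicate 2. Eya2 (chr2:165595032-165771727, plus strand), a gene of placodes and muscle progenitors, had 8.12 and 12.16 TPM. Eya1 and Eya2 could not be ordered: the ratio of Eya1 to Eya2 was 1.11 in replicate 1 and 0.988 in replicate 2. Eya4 (chr10:23102963-23350786, minus strand), whose human counterpart is a deafness gene, was the lowest Eya gene at 1.27 TPM in replicate 1 and 1.59 TPM in replicate 2, with 143 and 205 counts.

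Among the Six-family transcription factors the order was flatter. Six5 (chr7:19094594-19098549, plus strand), which neighbours the myotonic dystrophy kinase gene Dmpk, had 6.74 TPM in replicate 1 and 6.15 TPM in replicate 2. Six3 (chr17:85613608-85629302, plus strand), a regulator of forebrain and eye formation, had 6.70 TPM in replicate 1 and 3.41 TPM in replicate 2. Six3 therefore stood level with Six5 in replicate 1 and lay well below it in replicate 2, with Six5 to Six3 ratios of 1.01 and 1.80. Six4 (chr12:73099609-73113456, minus strand), a factor of muscle and sensory ganglia, had 2.65 and 3.28 TPM. Six2 (chr17:85684277-85688274, minus strand), which maintains nephron progenitors in the kidney, had 2.56 TPM in replicate 1 and 1.40 TPM in replicate 2. Six6 (chr12:72939892-72944899, plus strand) was lowest by mean, with its 0.56 and 1.55 TPM.

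Down the order of means there are 8 pairs of neighbours, and in 4 of them both libraries of the higher gene lay above both of the lower. These were Eya3 over Eya1, Eya2 over Six5, Six3 over Six4, and Six4 over Six2; the other 4 pairs overlapped. For the pairs Eya3 with Eya1 and Eya2 with Six5 the credible bounds in the authors' tables were apart as well, and they overlapped in the remaining 6 pairs. An exact permutation test of a level difference between 2 genes cannot pass with 2 libraries. Its smallest two-sided p is 0.333 with the values of the genes taken as unpaired. Pairing them by library leaves fewer arrangements, so it could not pass either. No other test of level differences was run. The 4 Eya genes summed to 43.60 TPM in replicate 1 and 51.17 TPM in replicate 2, which is 69.4% and 76.4% of the sum of all 9. The 5 Six-family members summed to 19.21 TPM in replicate 1 and 15.79 TPM in replicate 2.

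The lead of Eya3 rested on transcript models without an annotated protein. The tables divide each gene's TPM over its models and give the share as a percentage, which rests on reads that are often compatible with several models. Of the 13 Eya3 models, 5 are annotated as protein-coding, and these held 18.53% of its TPM in replicate 1 and 23.45% in replicate 2. Eya3-212, a processed transcript of 2320 nt, held 46.54% and 46.51%, with 763.75 and 881.42 counts. Eya3-206, another processed transcript at 655 nt, held 28.23% and 24.26%, and the coding model Eya3-207 held 14.62% and 18.74%. The fourth named model, Eya3-209, held 5.52% in replicate 1 and 2.84% in replicate 2. The 6 models shorter than 1200 nt together held 49.55% and 48.78% of the TPM of Eya3 but 22.2% of its counts in each library. With coding models alone Eya3 came to 4.66 TPM in replicate 1 and 5.96 TPM in replicate 2, below Eya1 (7.54 and 10.03 TPM), Eya2 (6.82 and 9.27 TPM) and Six5 (6.74 and 6.15 TPM). Most of this coding level was Eya3-207, at 3.68 TPM in replicate 1 and 4.76 TPM in replicate 2. That model is 1138 nt long, shorter than the 1578-base coding sequence of the coding model Eya3-203.

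**Figure D2:**
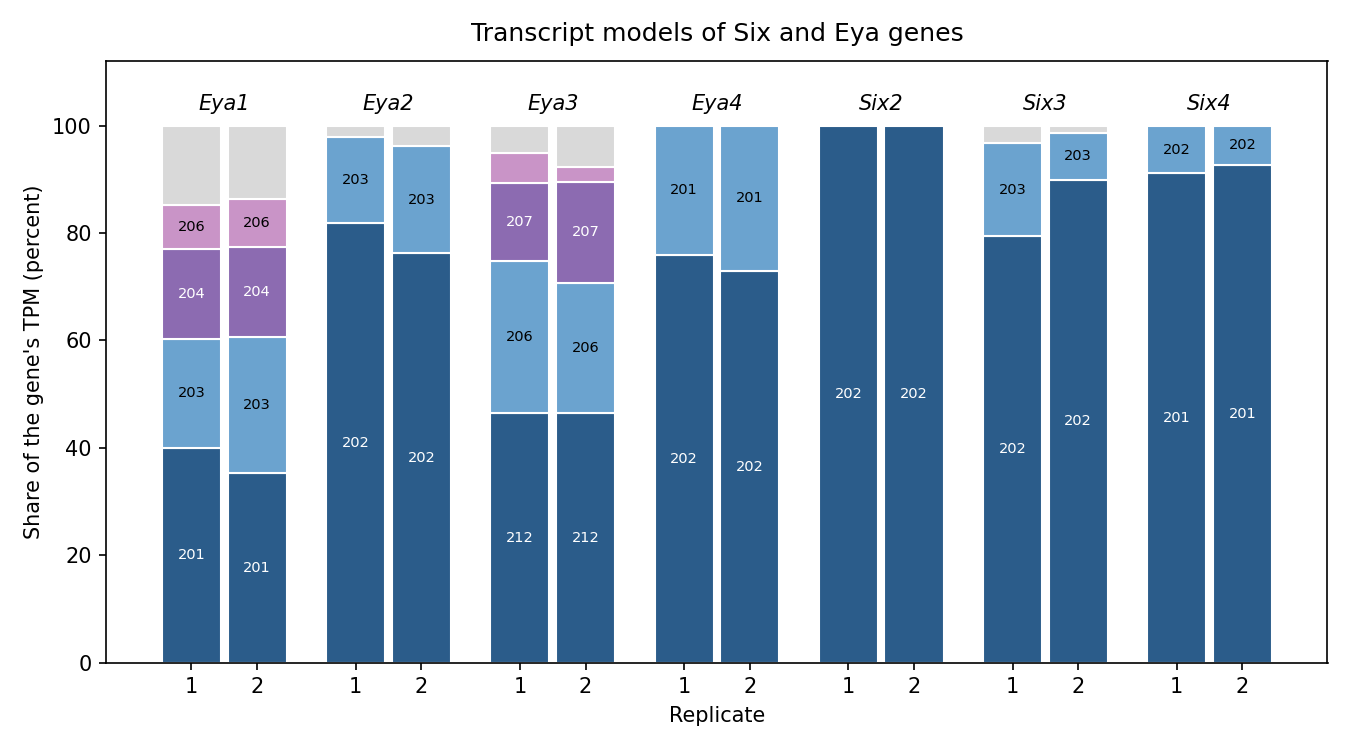
Share of each gene's TPM (y axis, percent) given to its transcript models in replicate 1 and replicate 2; colours separate up to 4 models per gene, labelled by the number in their name where they hold over 6%, and grey is the remainder. The leading model is the same in both libraries for each of the 7 genes drawn, and Six3-202 holds 79.45% in replicate 1 and 89.91% in replicate 2; Six5 and Six6 have a single model each and are not drawn.

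Eya1 was spread over several coding models. Eya1-201 held 39.98% of its TPM in replicate 1 and 35.33% in replicate 2, and Eya1-203 held 20.31% and 25.36%. The credible bounds of Eya1-203, 0.80 to 2.88 TPM and 2.15 to 3.96 TPM, overlapped between the libraries. In coding sequence the pair differs by the short segments shown here; capitals mark the bases present in only the named model and lower case the exon bases beside them.
Eya1-201, chr1:14270828-14270842, minus strand: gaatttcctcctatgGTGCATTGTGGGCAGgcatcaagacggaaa
Eya1-203, chr1:14274208-14274210, minus strand: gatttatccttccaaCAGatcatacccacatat
Both segments keep the reading frame, at 15 and 3 bases, and the coding sequences are 1773 and 1761 bases long. The models are 4347 and 4366 nt long and so differ outside the coding sequence as well, and the shares do not rest on these segments alone. A retained-intron model, Eya1-204, held 16.66% and 16.64%, and the 664-nt coding fragment Eya1-206 held 8.35% and 9.04%. Eya2 was carried mostly by Eya2-202, with 81.83% in replicate 1 and 76.24% in replicate 2. Its second model, the 369-nt processed transcript Eya2-203, held 16.11% and 19.90% of the TPM from 10.37 and 21.94 counts, and its credible bounds ran from 0.34 to 3.03 TPM in replicate 1.

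Eya4 held a pair of models with alternative exons of equal length. Eya4-202 held 75.89% of the TPM in replicate 1 and 72.97% in replicate 2, and Eya4-201 held 24.11% and 27.03%. The credible bounds of the models were apart in each library, at 0.71 to 1.16 TPM for Eya4-202 against 0.14 to 0.53 TPM for Eya4-201 in replicate 1, and 0.91 to 1.40 TPM against 0.22 to 0.66 TPM in replicate 2. The alternative exons are shown in capitals below, with the shared exon bases on each side in lower case.
Eya4-202, chr10:23109832-23109932, minus strand: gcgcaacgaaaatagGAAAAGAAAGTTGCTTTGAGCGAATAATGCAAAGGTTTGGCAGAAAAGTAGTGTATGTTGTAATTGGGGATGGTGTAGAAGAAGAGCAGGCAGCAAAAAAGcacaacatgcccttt
Eya4-201, chr10:23109971-23110071, minus strand: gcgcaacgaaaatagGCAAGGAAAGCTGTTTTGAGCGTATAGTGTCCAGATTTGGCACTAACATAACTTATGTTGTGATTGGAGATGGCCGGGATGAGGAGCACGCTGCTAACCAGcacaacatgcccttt
The exons are 101 bases each, lie 38 bases apart, are joined to the same bases on both sides and have the same base at 71 of 101 positions (70.3%). Both coding sequences are 1848 bases long. The models also differ in total length, 4091 nt for Eya4-202 and 3488 nt for Eya4-201 in the tables, so the shares do not rest on these exons alone. Eya4-202 is the model not found at the same length in M21, where it has 5304 nt. The exons and coding lengths given here are those of M21.

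Six3 was carried by models that start at different places. Six3-202, whose start lies 7226 bases upstream of that of Six3-203, held 79.45% of the TPM in replicate 1 and 89.91% in replicate 2. Six3-203 held 17.35% in replicate 1 and 8.73% in replicate 2. Six3-203 reached 1.16 TPM in replicate 1 (credible bounds 0.75 to 1.61) against 0.30 TPM in replicate 2 (0.10 to 0.48). The bounds of Six3-202 did not overlap between the libraries either, at 4.42 to 5.97 TPM in replicate 1 and 2.57 to 3.49 TPM in replicate 2, so both models were higher in replicate 1. Their coding sequences have the same length, 999 bases, and hold no coding base of their own. Six3-202 and Six3-203 differ at their other end as well, 4388 and 5357 bases downstream of the Six3-203 start. The models are 2419 and 3680 nt long, so the shares do not rest on the upstream start alone. The whole 106-base first exon of Six3-202 lies over exons of Six3os1, a long noncoding gene on the opposite strand. Six4-201 held 91.11% and 92.66% of Six4, with Six4-202 holding the remaining 8.89% and 7.34%, and Six2-202 held 100% of Six2 in both libraries.

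**Figure D3:**
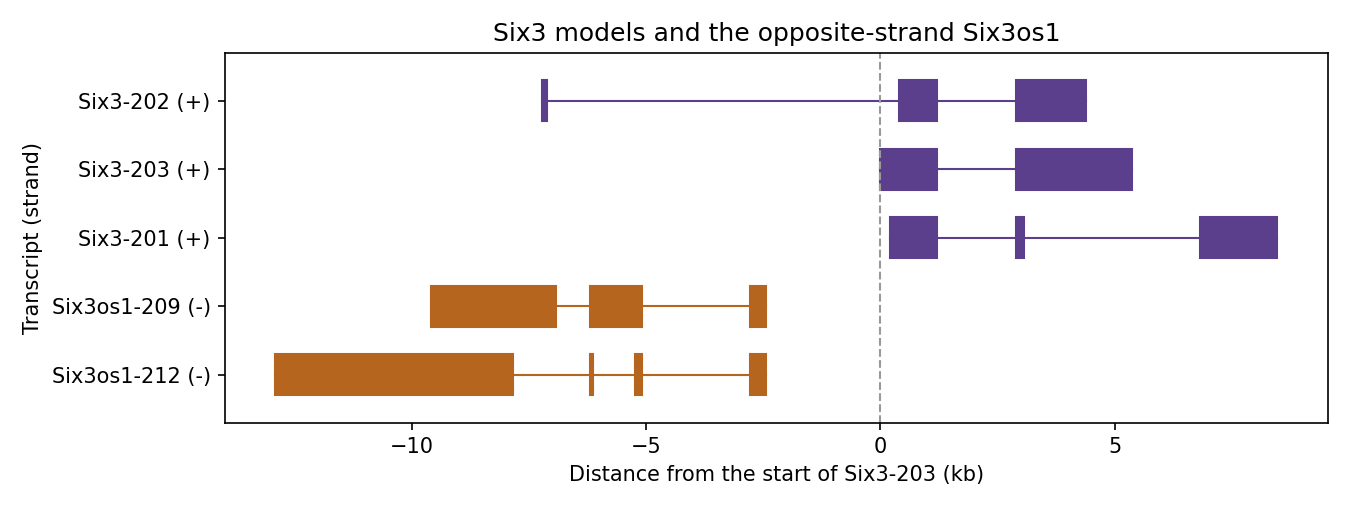
Exons (boxes) of the 3 Six3 models on the plus strand and of 2 Six3os1 models on the minus strand, by distance in kilobases from the start of Six3-203 (dashed line). The small first exon of Six3-202 sits 7226 bases upstream, within the span of the Six3os1 models.

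Opposite-strand genes shared reads with Six3 and Six6. The expected count of Six6 was 64.23 in replicate 1 and 204.10 in replicate 2, and that of 4930447C04Rik, which overlaps its start on the other strand, was 54.77 and 87.90. Each value is fractional, but the pair summed to 119.00 and 292.00, whole reads in both libraries, so reads were divided between strands at this locus. Likewise Six3 (501.83 and 279.07 counts), Six3os1 (1079.48 and 804.77) and the small genes Gm27275, Gm27502 and Gm28528 summed to 1586.00 in replicate 1 and 1086.00 in replicate 2. The posterior SD of the Six6 count was 0.85 reads in replicate 1 and 1.90 in replicate 2, and that of the Six3 count 1.17 and 1.18. In M21, 93 of the 3910 possible 100-base stretches of Six6-201 match the opposite strand of 4930447C04Rik transcripts in sequence. So do 9 of 2320 of Six3-202 for Six3os1 and 69 of 3581 of Six3-203 for Gm28528. A read in those stretches cannot be given to a strand from these counts.

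The 2 pools were then compared gene by gene, as a measure of how steady each member was between samples of this tissue. The test was a two-sided exact binomial test on rounded counts scaled by TMM, with Benjamini-Hochberg adjustment over the 14768 genes whose mean reached 1 TPM. It covers counting error only and compares these libraries, not conditions, and the difference has no replicate check. A gene was called when its adjusted p was under 0.05 and its ratio at least 2-fold. Of the 9 members 1 was called, Six6, lower in replicate 1, while 2.35% of all genes were called, 1.68% higher and 0.67% lower. Past 2-fold without regard to p lay the same 1 member and 3.22% of all genes. Six6, at 0.56 TPM in replicate 1 and 1.55 TPM in replicate 2, reached the mean of 1 TPM only through replicate 2, where it is higher. The called markers Vax2, Des and Sox10, given below, entered the test in the same way. By adjusted p alone 8 of the 9 passed, 2 higher in replicate 1 and 6 lower, against 53.3% of all genes. At this depth, therefore, most genes differed between the libraries by more than counting error. Scaled by library totals alone 7 of the 9 passed, since Eya3 no longer did (exact binomial test, adjusted p = 0.112).

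Six6 was 2.93-fold lower in replicate 1 than in replicate 2, with a log2 ratio of -1.55 and a 95% counting interval of -1.99 to -1.15 (exact binomial test, adjusted p = 4.59e-15). Six3 was 1.94-fold higher in replicate 1, a log2 ratio of 0.96 with an interval of 0.75 to 1.18 (exact binomial test, adjusted p = 9.62e-19), just inside the 2-fold limit. Six2 was 1.73-fold higher in replicate 1, at 152 counts in replicate 1 and 95 in replicate 2 (exact binomial test, adjusted p = 8.05e-05). Six3 and Six2, which lie 54975 bases apart on chromosome 17, thus kept a ratio of 2.62 in replicate 1 and 2.44 in replicate 2. The homologues Six3 and Six6 moved apart: Six3 stood 11.96 times above Six6 in replicate 1 and 2.20 times above it in replicate 2.

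**Figure D4:**
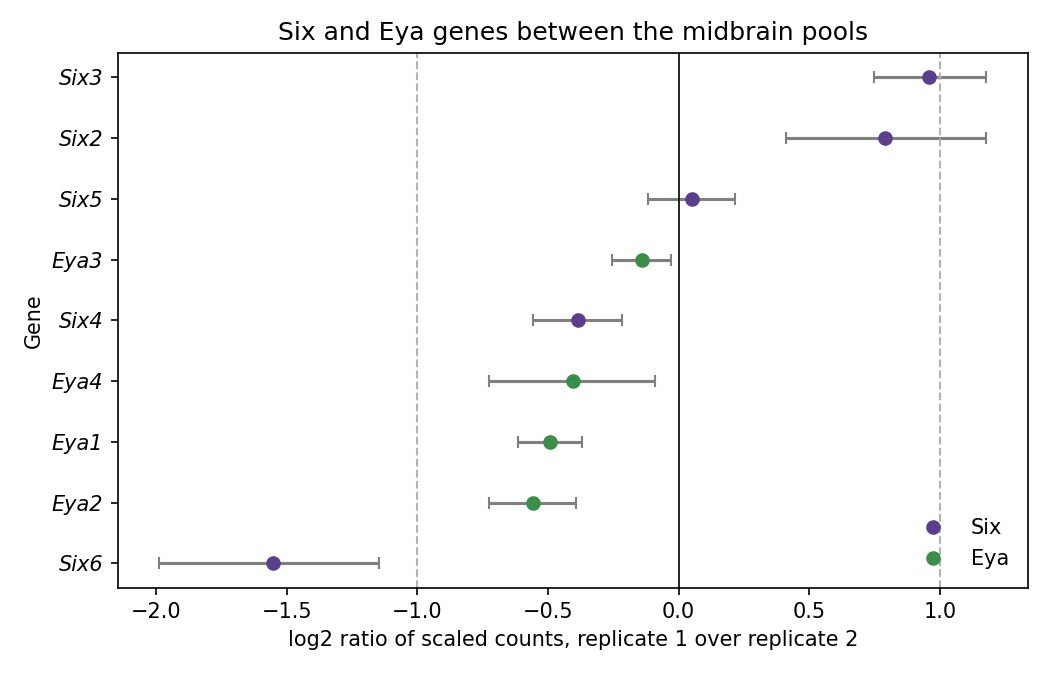
Log2 ratio of scaled counts, replicate 1 over replicate 2 (x axis), for each gene (y axis), with bars for 95% counting intervals and dashed lines at 2-fold. Six6 at -1.55 lies beyond the line, Six3 and Six2 lie on the higher side of 0, and the 4 Eya genes lie below 0 between -0.56 and -0.14.

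The 4 Eya genes had log2 ratios below 0. Eya2 was at -0.56, Eya1 at -0.49, Eya4 at -0.40 and Eya3 at -0.14, all with counting intervals that leave out 0 and all short of 2-fold. In TPM, however, Eya3 was level, at 25.17 in replicate 1 and 25.40 in replicate 2. Six4 was at -0.39, and Six5 at 0.05 was the member for which the test did not pass (exact binomial test, adjusted p = 0.657), with an interval of -0.12 to 0.22. The median absolute log2 ratio of the members was 0.49, against 0.16 over all genes tested, and the median log2 ratio was -0.39 against -0.01. These sets were not matched for level. All genes tested had a median of 16.62 TPM in replicate 1 and 15.23 TPM in replicate 2, above every member but Eya3.

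Markers of neighbouring tissues, which a midbrain dissection could hold and in which Six- and Eya-family genes are active, moved with some of these values. Of 9 optic vesicle and eye markers 3 reached 1 TPM in both libraries, and the list summed to 10.35 TPM in replicate 1 and 17.99 TPM in replicate 2. Of the 5 tested, 2 were called, both lower in replicate 1 as Six6 was. These were Rax, an eye-field factor, at 2.99 and 5.73 TPM, and Vax2, a ventral retina factor, at 0.51 and 1.64 TPM. Pmel, a pigment cell gene, stood at 3.27 and 5.70 TPM and was not called. Dct, another pigment gene, went the other way at 1.72 and 1.38 TPM. The median log2 ratio of the list was -0.95, against -0.01 over all genes, and the lowest marker, Vax1, stood at 0.04 and 0.09 TPM. The part of eye tissue in the Six6 difference was not tested.

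Rostral forebrain markers, the other known setting of Six3, went both ways, with 5 ratios above 1 and 4 below. Of 11, 9 reached 1 TPM in both libraries, they summed, with the rest of the list, to 85.80 TPM in replicate 1 against 74.96 TPM in replicate 2, and the median log2 ratio was 0.06. Fezf2, a forebrain patterning factor, was called lower in replicate 1, at 3.92 and 7.78 TPM. Lhx2, at 24.54 and 19.90 TPM, Dlx1, an interneuron factor at 18.96 and 10.36 TPM, Nkx2-1, a hypothalamic factor at 7.93 and 7.77 TPM, and Emx2 at 7.83 and 7.43 TPM were not called. The newborn neuron markers leaned to replicate 1: all 9 had ratios above 1, with a sum of 1182.17 TPM in replicate 1 and 752.19 TPM in replicate 2 and a median log2 ratio of 0.58. Dcx, a microtubule protein of migrating neurons, was the called member at 44.54 and 19.60 TPM. Tubb3 stood at 562.42 and 363.90 TPM, Stmn2 at 175.44 and 100.59 TPM, Gap43 at 171.19 and 111.43 TPM and Elavl4 at 153.71 and 110.92 TPM. The part of neuron content in the Six3 and Six2 differences was not tested.

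**Figure D5:**
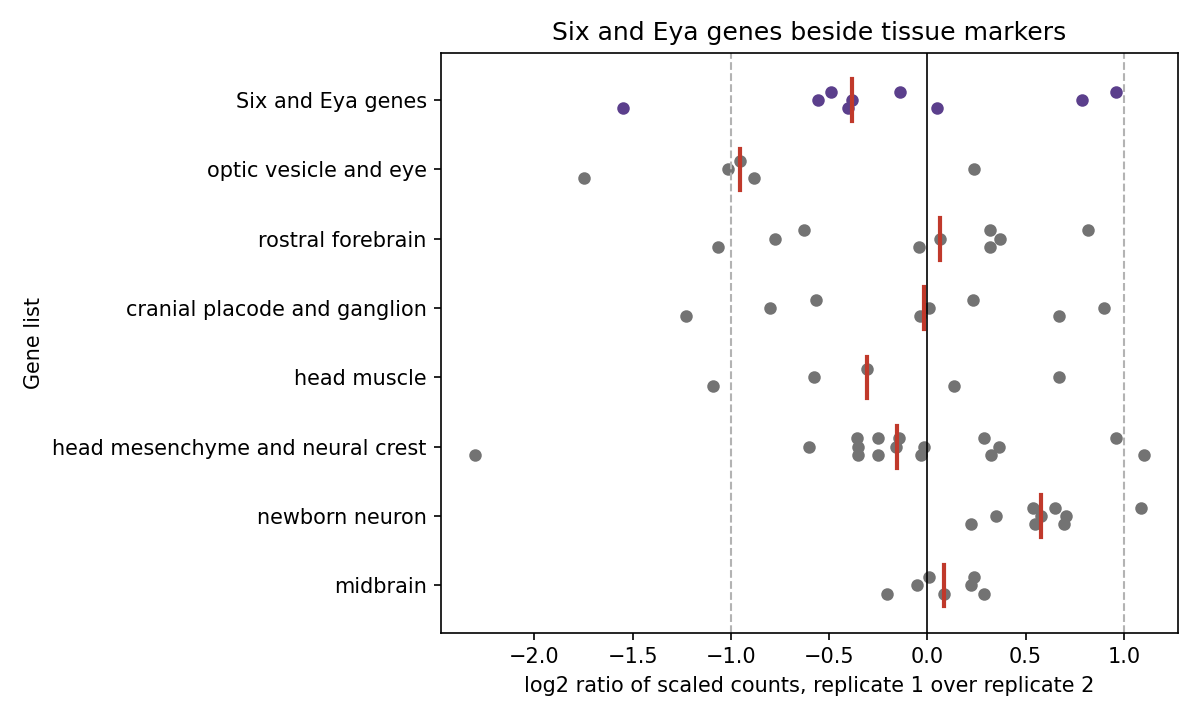
Log2 ratios, replicate 1 over replicate 2 (x axis), of the 9 members (top row) and of the tested markers of 7 tissues (rows below), with a red bar at each list's median and dashed lines at 2-fold. Eye markers have a median of -0.95 and newborn neuron markers 0.58, while midbrain markers centre at 0.08.

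Markers of the placodes, ganglia, muscle and mesenchyme, the other tissues where Eya genes are known, were also present. Of 13 placode and ganglion markers 8 reached 1 TPM, with sums of 58.28 TPM in replicate 1 and 59.53 TPM in replicate 2 and a median log2 ratio of -0.02. The lens factor Foxe3 was called lower in replicate 1, at 5.63 and 12.52 TPM, while Pou4f1, a sensory neuron factor also made in the midbrain, stood at 21.01 and 20.77 TPM. Ntrk2, the BDNF receptor, stood at 9.07 and 5.45 TPM and Dlx5 at 7.46 and 3.78 TPM, both uncalled. Foxi3 and Pitx1 were listed at 0 in replicate 1. Of 10 head muscle markers 3 reached 1 TPM, with sums of 47.36 TPM in replicate 1 and 33.84 TPM in replicate 2. The median log2 ratio of the tested muscle markers was -0.31, and the filament gene Des was called lower in replicate 1, at 0.97 and 2.37 TPM. Actc1, at 3.02 and 2.60 TPM, and Myf5, at 2.39 and 2.79 TPM, were not called.

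Of the head mesenchyme and neural crest markers 15 of 16 were detected, with sums of 772.27 TPM in replicate 1 and 581.55 TPM in replicate 2. Collagen genes led them, Col3a1 at 416.36 and 316.74 TPM and Col1a1 at 149.30 and 72.56 TPM. Lum followed at 91.79 and 69.30 TPM and Snai1 at 25.36 and 30.67 TPM. Dcn was called higher in replicate 1, at 11.74 and 5.16 TPM, and the crest factor Sox10 lower, at 0.46 and 2.15 TPM, with a list median log2 ratio of -0.15. The midbrain list itself had no called member among 7 tested and a median log2 ratio of 0.08, with Otx1 at 46.34 and 37.83 TPM, Meis2 at 37.26 and 29.30 TPM and Dmbx1 at 33.26 and 32.69 TPM. Whether the Eya levels came from neuroepithelium or from such admixed tissue was not tested.

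Genes for proteins with which SIX- and EYA-family proteins act were transcribed in the tissue. All 10 listed partners were detected, and none was called between the pools, with a median log2 ratio of 0.24. Aes, a short Groucho-family gene, stood at 323.35 and 240.24 TPM and the corepressors Tle3 and Tle1 at 47.05 and 41.28 TPM and at 25.95 and 23.20 TPM. Gmnn, which encodes geminin, a binding partner of SIX3, stood at 129.73 TPM in replicate 1 and 158.19 TPM in replicate 2. On the phosphatase side, H2afx, whose product is an EYA substrate, stood at 449.47 and 452.79 TPM. Baz1b, which encodes the kinase of the same H2AX tyrosine, stood at 41.83 and 40.74 TPM, Mdc1, which reads phosphorylated H2AX, at 15.22 and 14.08 TPM, and the adaptor gene Apbb1 at 113.42 and 95.86 TPM. None of these 4 was called, and their median log2 ratio was -0.07.

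Of 10 genes reported as targets of SIX- or EYA-family proteins elsewhere, 7 were detected and none of the 7 tested was called, with a median log2 ratio of -0.13. Wnt1, a midbrain signal reported to be repressed by Six3, stood at 18.58 TPM in replicate 1 and 20.38 TPM in replicate 2. Cdkn1b, a cell cycle inhibitor reported to be repressed by Six6 in the retina, stood at 17.63 and 13.14 TPM. Ezr, which encodes the membrane linker ezrin, stood at 46.36 and 48.20 TPM.

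Genes beside the Six-family members in the genome differed in whether they moved with them. Six3os1 (chr17:85600651-85618398, minus strand) had 12.07 TPM in replicate 1 and 8.61 TPM in replicate 2. It was 1.45-fold higher in replicate 1 (exact binomial test, adjusted p = 9.11e-15), in the direction of Six3 and uncalled, and it shares reads with Six3. Gm28528, an antisense gene over Six3, held 4.27 counts in replicate 1 and none in replicate 2. Six6 and Six4 lie 154710 bases apart on chromosome 12, and both were lower in replicate 1. Beside Six6, 4930447C04Rik stood at 1.53 TPM in replicate 1 and 1.91 TPM in replicate 2, and the noncoding Gm26709, 908 bases away, at 0.34 and 0.65 TPM from 5 and 11 counts. Mnat1, 10261 bases from Six4, stood at 24.56 and 29.91 TPM. Beside Six5, Dmpk at a distance of 773 bases stood at 7.43 and 7.03 TPM, Dmwd at 15.25 and 14.70 TPM and Gm4969 at 0.70 and 1.17 TPM. The Six5 neighbours Dmpk and Dmwd had scaled ratios of 0.997 and 0.994, close to the 1.04 of Six5 itself.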

How the data were processed

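Gene and transcript tables on mm10 with GENCODE M4, per the file headers, were used as deposited; which aligner and quantifier made them is not given in the sources used here. The authors' tables give expected counts, TPM, FPKM and isoform percent, with TPM credible bounds as deposited signal values whose confidence level is not stated. Totals were 45531621 (replicate 1) and 50477634 (replicate 2) expected counts over 43346 gene rows, spike-in and tRNA rows left out. Names, positions and sequences came from GENCODE M21 on GRCm38, matched by identifier. The homeobox was found in each coding sequence by the conserved motif of its recognition helix.

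A gene at 1 TPM or more in each library was called detected. For the comparison of the libraries, counts were rounded to whole numbers, TMM-scaled (edgeR 4.0.16, R 4.3.3) and passed to the exact binomial test of scipy 1.17.1, two-sided, adjusted by Benjamini-Hochberg over 14768 genes; log2 ratios add 0.5 to each count. The step was tested on simulated counts. Counting intervals are 95%, and without molecular identifiers they cover counting error only. No likeness of pattern was computed, since 2 libraries always correlate at 1 or -1. All 9 genes, transcripts of at least 5% (up to 4 a gene), the 4 highest genes of each list, every called gene and up to 3 neighbours within 100 kb were named; some others are given as marker checks, and some genes these rules take are not reported here. The genes and lists were chosen with earlier results of these data known. DESeq2 1.42.0 size factors, library totals, TPM ratios, other filters, folds and added counts were tried.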

Additional observations from a re-analysis of the deposited data

How the results depend on the processing

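The number of genes detected ranged from 6 to 9 over the alternatives: 9 at 0.5 TPM, 6 at 2 TPM, 8 with posterior mean TPM, 6 by FPKM of at least 1, and 8 to 9 when leaving out each replicate. The order of means was the same with posterior mean TPM and FPKM, and the same in replicate 1 alone. In replicate 2 alone Eya2 stood above Eya1, and Six2 was lowest, below Eya4 and Six6. With coding models only, chosen after seeing the isoform values, Eya1 led in place of Eya3 and the Eya share fell to 57.2%, against 72.9% ± 5.0 (SD, n = 2) with all models; leaving out each replicate gave 69.4% to 76.4%. Transcripts at 5% or more numbered 21, 22 with posterior means, and 19 to 20 when leaving out each replicate.

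Between the pools, 347 genes and 1 member were called. Without the filter on low values 1085 genes were called and with a mean of at least 5 TPM 100, which keeps 5 members, leaves out Six6 and calls 0 members. At 1.5-fold 1124 genes and 3 members were called and at 3-fold 91 genes and 0 members; Six3 and Six2 were those added, and Six6 that lost. DESeq2 size factors, library totals, TPM ratios and 5 added counts gave 309 to 387 genes and 1 member. No member changed direction under any of these 8 settings; Six3 stayed between 0.95 and 1.00 on the log2 scale and Six6, where tested, between -1.56 and -1.45. The comparison needs both libraries and could not be run without either. No paired analysis of groups was possible because there is 1 group. With 2 pooled libraries, no value here says how embryos vary.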
